A study of Danio rerio with 6 samples.

Results

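Globin and heme synthesis transcripts were followed in heads of zebrafish embryos (Danio rerio) at 2 days post fertilization, by RNA sequencing. The 10 genes were taken by symbol: the embryonic globins hbae1.1, hbae3, hbae5, hbbe1.1 and hbbe2, the adult-type globins hbaa1 and hbba1, and the heme synthesis genes alas2, urod and fech. They brought in 14 of the 32520 gene identifiers counted. The first group was slbp1-/- mutants, which the library titles assign to rw440 (3 libraries), and the second their wildtype siblings (3 libraries). The slbp1 gene encodes a stem-loop binding protein, which binds the end of histone mRNAs and is needed to process them. The genes were chosen with this same comparison already known, so their values are given as a description, without p-values.

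The table of names gave the listed zebrafish symbol for 5 of the genes. UROD and FECH stood under upper-case symbols. The β-globins hbbe1.1, hbbe2 and hbba1 were found only through HBE1, a symbol that 7 identifiers share. All 7 were taken. The sources used here do not say which of them is an embryonic and which an adult-type chain, so the contrast of embryonic with adult-type globin rests on the α chains. Several globin copies are nearly identical in sequence, and the handling of reads that fit more than 1 copy is not given, so values of single copies are uncertain and sums are given beside them.

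Hemoglobin is built from α-type and β-type globin chains, each of which holds a heme group with an iron atom. Zebrafish make embryonic globins in the first red cells, which enter the circulation during the first days of life, and change to adult-type globins as later red cells take over. Heme is made stepwise: alas2 encodes the red cell form of the first enzyme, urod a middle enzyme and fech the last, which inserts the iron. Each of the 3 is known from zebrafish mutants with blood defects. In the RefSeq annotation of the GRCz12tu assembly, used only for gene order, 11 globin genes followed each other in 1 cluster, from hbaa2 and hbaa1 at one end to hbae3 at the other. The other 4 formed a second cluster in the order hbae4, hbbe3, hbbe2 and hbae5.

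Total counts were between 3421961 and 5395071 per library. Whether each library had its own clutch or pool of embryos is not in the labels, so a p-value sets the group difference against library spread that may be technical. Levels are in CPM, counts scaled to a common library size with TMM factors, and levels of different genes cannot be set against each other because no transcript lengths were used. The slbp transcript had 180, 144 and 183 CPM in mutants, against 98.1, 104 and 87.2 CPM in siblings, and since the lesion is not described this does not check the genotypes. The fit was edgeR's quasi-likelihood test over 15561 genes, and a gene is called where its Benjamini-Hochberg adjusted p was under 0.05. Neuron markers, which fit the labelled tissue, were present in every library. They summed to between 658 and 899 CPM in mutants and between 1500 and 1803 CPM in siblings, with 6 of 7 tested called lower. Of 12 tested on the longer neuron list, 9 were lower and 1 higher, beside 12.8% lower and 12.9% higher among all tested genes. The higher one was STMN1 (ENSDARG00000004169), at 581 CPM in mutants against 168 CPM in siblings on average.

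Adult-type α-globin was found in all 3 mutant libraries and was nearly absent from siblings. The hbaa1 gene (ENSDARG00000097011), an adult α chain, had 10, 215 and 60 counts in mutant replicates 1 to 3, against 0, 1 and 0 counts in the siblings. These were 2.32, 49.0 and 14.2 CPM in mutants, against 0, 0.184 and 0 CPM in siblings. Every mutant library lay above every sibling library, and the mutants spread 21.2-fold among themselves. With 285 counts over the mutants against 1 over the siblings, the ratio per scaled library size was 332, with an exact 95% interval from 59.1 to 13155. That interval covers counting error only, not the wide spread between mutant libraries, and the ratio itself rests on that 1 sibling count. With siblings set to a floor of 3 counts per library, the mutant mean was at least 35.4-fold higher. The adult gene hbaa2 of the same cluster, which is not a member, had 1 count in mutant replicate 2 and 0 elsewhere.

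As a share of all counts on named α-globins, the adult genes hbaa1 and hbaa2 held 0.453% in mutant replicate 1 (exact 95% interval 0.217 to 0.831), 3.05% in replicate 2 (2.66 to 3.48) and 4.65% in replicate 3 (3.57 to 5.94). The sibling shares were 0 of 3180, 1 of 4854 and 0 of 3339 counts, and a count of 0 allows up to 0.0943% in sibling replicate 1 and 0.0898% in sibling replicate 3. The order of the mutants by this share differed from that by level: replicate 3 had the highest share, and replicate 2 the highest level.

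Among the 7 HBE1 identifiers, 3 were without a single sibling count, and all 3 had counts in mutants. ENSDARG00000097238 had 4.63, 33.3 and 5.90 CPM in mutants and 0 in siblings, at least 23.7-fold higher when siblings are set to a floor of 3 counts per library. ENSDARG00000089087 had 0.232, 6.62 and 3.07 CPM in mutants and 0 in siblings, with a mutant mean at least 5.36-fold above the same floor. Its 1 count in mutant replicate 1 was under that floor, so the difference rests on mutant replicates 2 and 3. ENSDARG00000069734 had 0, 7 and 1 counts in mutants and 0 in siblings, and its mutant mean was under that floor, so no fold is given. All of these, like hbaa1, had their highest level in mutant replicate 2. Together the 3 identifiers, grouped after their values were seen, held 2.89%, 8.34% and 10.6% of HBE1 counts in mutants, against none in siblings, which the grouping itself fixed.

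**Figure D1:**
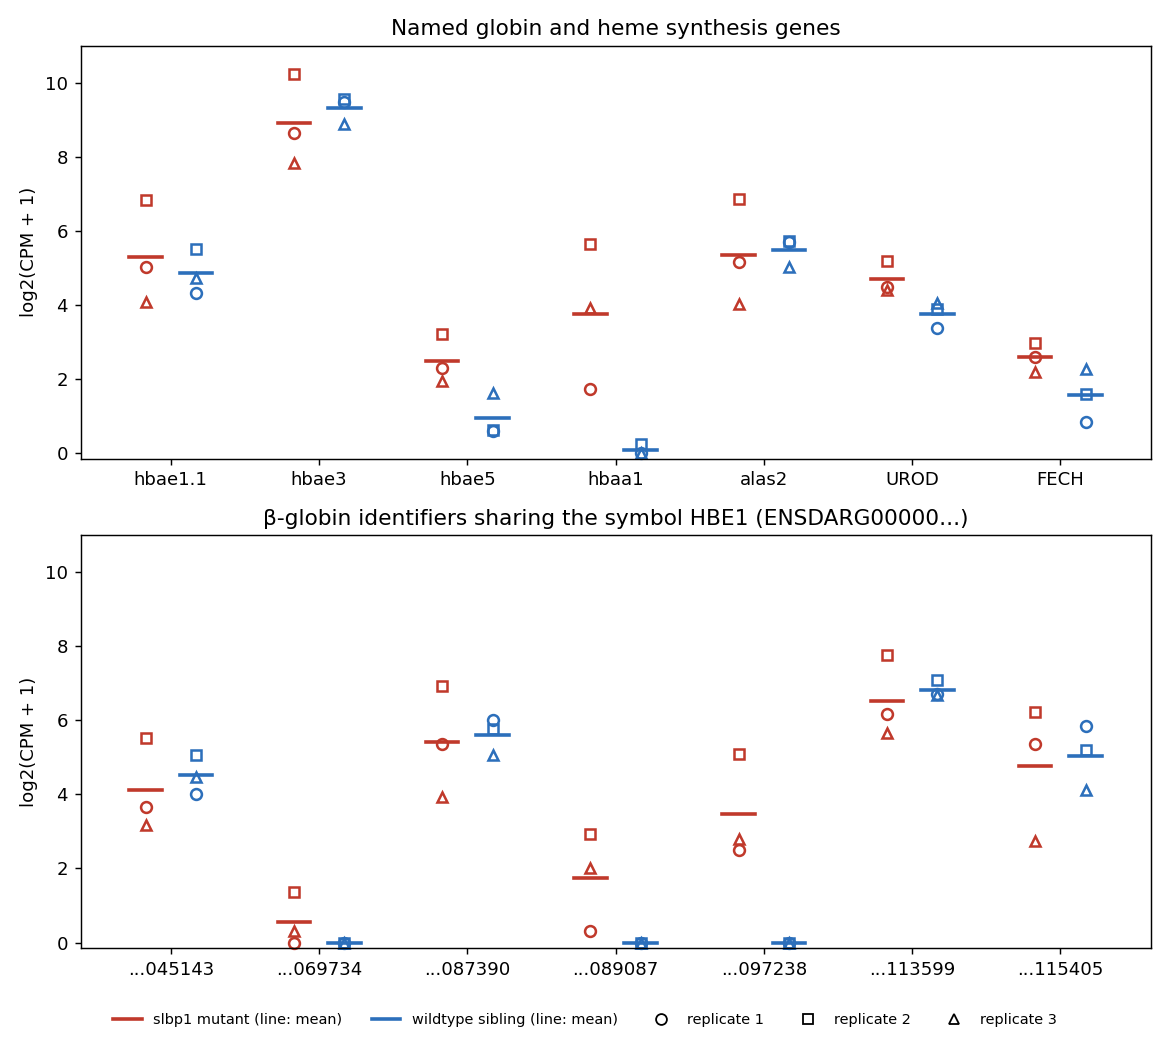
Level of each gene in each library, as log2(CPM + 1), in slbp1 mutants (left of each pair) and wildtype siblings (right); symbols mark replicate numbers and lines the means of the log values. The upper panel holds the 7 named genes, where hbaa1 is at or near 0 in the siblings and above 1 in every mutant; the lower panel holds the 7 HBE1 identifiers, 3 of them at 0 in every sibling.

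The embryonic α-globins that made up most of the α-globin counts did not move in 1 direction. The embryonic α chain gene hbae3 (ENSDARG00000079305) had 401, 1216 and 227 CPM in mutants, against 713, 757 and 472 CPM in siblings. Mutant replicate 2 was above all siblings and the other mutants were below all of them. Its fitted log2 difference was -0.07 ± 0.61 (SE).

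The embryonic α chain gene hbae1.1 (ENSDARG00000089475) had 31.5, 113 and 15.8 CPM in mutants, against 19.1, 44.8 and 25.4 CPM in siblings. The groups overlapped, with a log2 difference of 0.83 ± 0.83 (SE) that was -0.34 without mutant replicate 2. Because its copies hbae1.2 and hbae1.3 may exchange reads with it, the 3 were also summed. The sum had 102, 340 and 60.7 CPM in mutants, against 107, 135 and 102 CPM in siblings, again with mutant replicate 2 above and replicate 3 below every sibling.

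The third embryonic α member, hbae5 (ENSDARG00000045142), lies in the smaller gene cluster and had another pattern. It had 3.94, 8.21 and 2.83 CPM in mutants, against 0.517, 0.553 and 2.08 CPM in siblings, from 12 to 36 counts in mutants and 2 to 12 in siblings. All mutants were above all siblings, and the log2 difference was 2.16 ± 0.63 (SE). Sibling replicate 3 came close to mutant replicate 3, and without that sibling library the difference was 3.15.

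Summed over the 3 embryonic α members, the level was 437, 1337 and 246 CPM in mutants, against 732, 803 and 500 CPM in siblings. The mutants averaged 673 ± 583 CPM and the siblings 678 ± 159 CPM (SD, n = 3), a log2 ratio of -0.01. Mutant replicate 2 set this ratio: without it the log2 ratio was -0.99.

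The 4 HBE1 identifiers with sibling counts had their highest and lowest levels in the same libraries as hbae3. ENSDARG00000113599, which had the most counts of the 7, had 71.6, 215 and 49.8 CPM in mutants, against 105, 136 and 101 CPM in siblings, with a log2 difference of -0.02 ± 0.56 (SE). ENSDARG00000115405 had 40.1, 73.9 and 5.67 CPM in mutants, against 56.1, 35.8 and 16.3 CPM in siblings. In each of the 4, mutant replicate 2 was the highest of the 6 libraries and mutant replicate 3 the lowest, and the fitted log2 differences lay between -0.09 and 0.25. All 7 HBE1 identifiers together had 168, 498 and 86.9 CPM in mutants, against 239, 258 and 171 CPM in siblings. Their log2 ratio of means was 0.17, or -0.01 on total counts and -0.80 without mutant replicate 2.

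In bulk samples fewer red cells and less RNA per red cell cannot be told apart. Red cell markers other than globins varied with the same libraries. The red cell markers fixed for this comparison (SLC4A1, a membrane anion exchanger, cahz, a carbonic anhydrase, the regulators gata1a and klf1, hemgn, epb41b, SPTB and RHAG, on 9 identifiers with the member alas2 left out) summed to 104, 361 and 44.6 CPM in mutants, against 160, 152 and 141 CPM in siblings. None of the 7 tested was called (0 higher and 0 lower), beside 25.7% called among all tested genes. The SEs of their log2 differences ran from 0.29 for RHAG to 0.96 for hemgn. The part of red cell content in the member values was not tested.

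**Figure D2:**
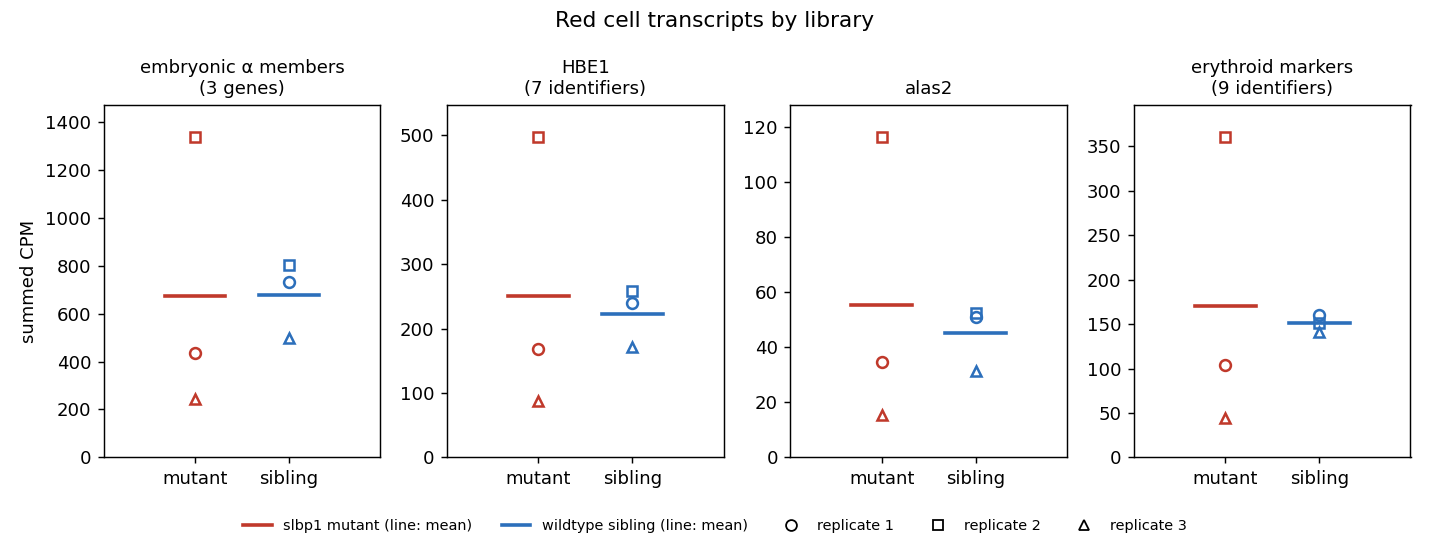
Summed CPM in each library for the 3 embryonic α-globin members, the 7 HBE1 identifiers, alas2 and 9 red cell marker identifiers, in slbp1 mutants (left) and wildtype siblings (right); lines are means and each axis starts at 0. Mutant replicate 2 is the highest library and mutant replicate 3 the lowest in all 4 panels, with the other libraries in between.

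The spread between mutant libraries was wide for 9 of the 12 members that passed the low-count filter. For these 9, the SD of log2 CPM over the mutants was larger than in 95% of all tested genes, where the median SD was 0.304 in mutants and 0.254 in siblings. It was 1.23 for hbae3, 1.45 for alas2 and 2.09 for hbaa1. The exceptions were hbae5 (0.72), UROD (0.45) and FECH (0.44), whose SD over the mutants exceeded that of 89.9%, 71.7% and 70.6% of tested genes. In siblings hbae3 had an SD of 0.37, larger than in 70.7% of tested genes. Some members were wide in siblings too. FECH, ENSDARG00000115405 and hbae5 had sibling SDs of 0.91, 0.89 and 0.80, larger than in 97.6%, 97.3% and 96.0% of tested genes. The other tested members exceeded at most 90.5% of tested genes in siblings, the value of hbae1.1.

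Reads were also set against hbae3 of the same library, a ratio that does not depend on how libraries are scaled and that was chosen after the data were seen. The red cell enzyme gene alas2 had 86.6, 95.9 and 67.6 reads per 1000 hbae3 reads in mutants, against 71.9, 69.4 and 66.7 in siblings. The β-globin ENSDARG00000113599 had 178, 177 and 220 in mutants, against 147, 180 and 215 in siblings. For both, the groups overlapped, and the mutants spread 1.42-fold and 1.24-fold by this ratio, where their CPM had spread 7.59-fold and 4.32-fold. Other genes stayed more spread among the mutants by this ratio, with 99.8, 60.8 and 25.0 for ENSDARG00000115405, and spreads of 6.07-fold for hemgn, 2.55-fold for SPTB and 2.29-fold for cahz. The membrane gene SLC4A1 (ENSDARG00000012881) had 98.1, 117 and 57.2 in mutants, against 84.2, 83.8 and 111 in siblings, a 2.04-fold spread among mutants, and the groups overlapped as well.

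By the same ratio hbaa1 had 5.77, 40.3 and 62.4 reads per 1000 hbae3 reads in mutants, against 0, 0.243 and 0 in siblings. The exact 95% intervals ran from 2.76 to 10.6, 35.0 to 46.2 and 47.3 to 81.1 in mutants, and reached up to 1.34, 1.36 and 1.35 in siblings. By counting error alone, mutant replicate 1 was apart from the siblings and also from the other mutants. Libraries of the same group differed beyond counting error, so these intervals cannot set libraries or groups apart, and nothing is read from them. ENSDARG00000097238 had 11.5, 27.4 and 26.0 in mutants and 0 in every sibling.

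The hbae5 ratio was 9.81, 6.75 and 12.5 in mutants, against 0.726, 0.730 and 4.40 in siblings. The group means were 9.68 ± 2.87 in mutants and 1.95 ± 2.12 in siblings (SD, n = 3). The ratio of hbae1.1 was 78.5, 92.9 and 69.7 in mutants, against 26.9, 59.2 and 53.9 in siblings, so that the groups no longer overlapped, as they did in CPM. Of the embryonic β chain hbbe3, not a member but named in the table, the ratio was 349, 297 and 381 in mutants, against 74.8, 62.3 and 188 in siblings, or 342 ± 42.2 and 108 ± 69.1 (SD, n = 3). Each of the 3 was higher in every mutant than in every sibling. For hbae1.1 and hbae5, exact counting intervals of the nearest libraries overlapped. For hbae1.1 they were 53.6 to 89.4 in mutant replicate 3 and 51.8 to 67.4 in sibling replicate 2. For hbae5 they were 4.73 to 9.36 in mutant replicate 2 and 2.27 to 7.70 in sibling replicate 3. The hbbe3 intervals were apart. In mutant replicates 1 and 3, hbae3 itself was below every sibling in CPM, which raises this ratio for any gene there. The share of all genes apart by this ratio is not given, so nothing is read from the lack of overlap. The ratio of hbae4, which neighbours hbbe3, was 4.04, 2.06 and 1.04 in mutants, against 3.63, 2.68 and 4.03 in siblings, and the groups overlapped.

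**Figure D3:**
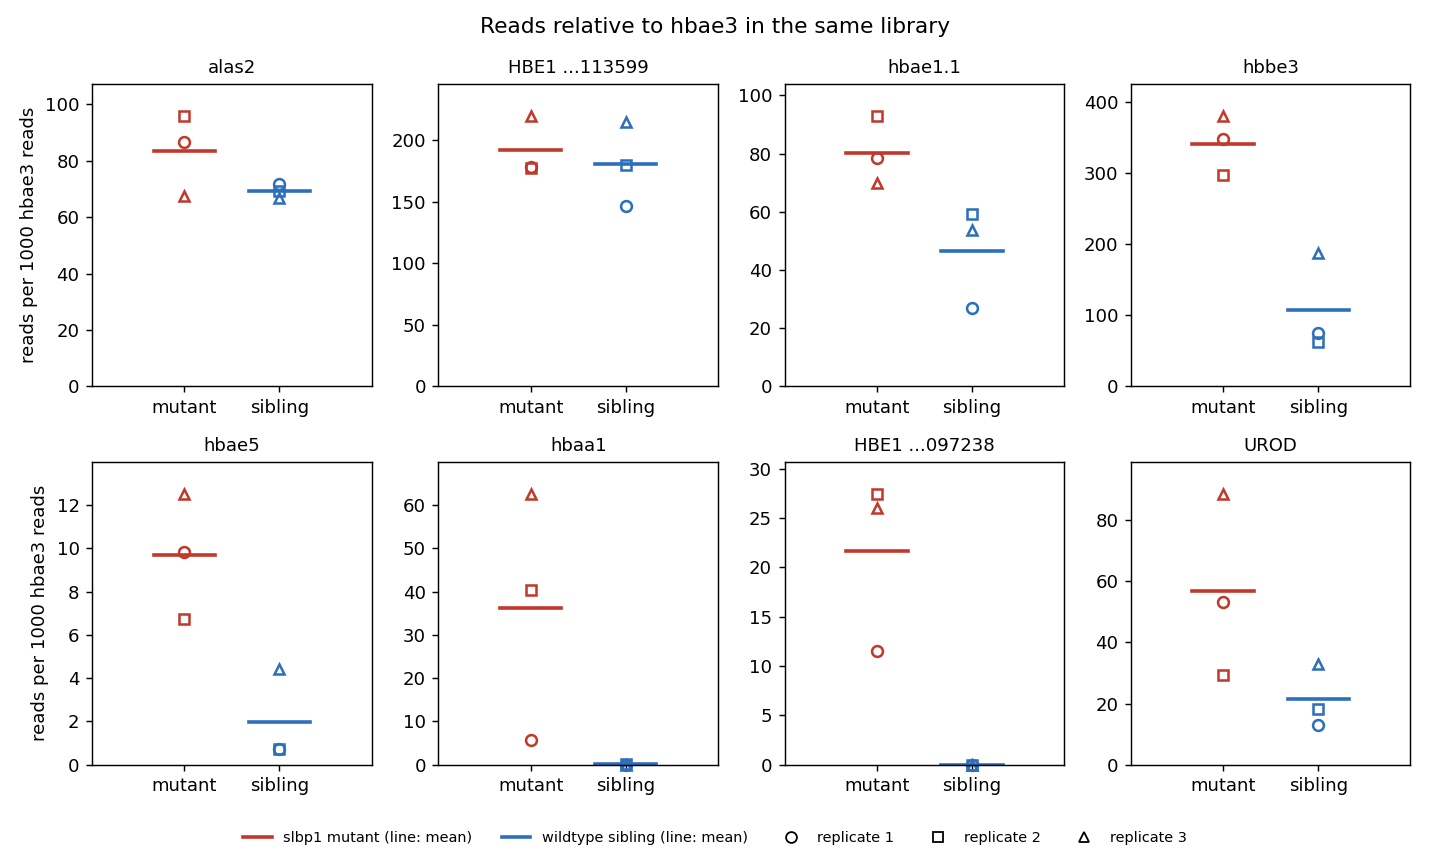
Reads per 1000 hbae3 reads of the same library for 8 genes, in slbp1 mutants (left) and wildtype siblings (right), with means as lines and each axis starting at 0. The groups overlap for alas2 (67.6 to 95.9 in mutants and 66.7 to 71.9 in siblings), ENSDARG00000113599 and UROD. The plotted values are apart for hbae1.1, hbbe3, hbae5, hbaa1 and ENSDARG00000097238, though counting intervals of the nearest libraries overlap for hbae1.1 and hbae5. How many of all genes are apart by this ratio is not given.

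Of the heme synthesis members, alas2 had its highest and lowest levels in the same libraries as hbae3. UROD and FECH had the mutant libraries in the same order as hbae3, but with a narrower spread. The alas2 gene (ENSDARG00000038643) had 34.7, 117 and 15.4 CPM in mutants, against 51.2, 52.6 and 31.5 CPM in siblings. The groups overlapped, with a log2 difference of 0.31 ± 0.79 (SE), or -0.84 without mutant replicate 2. UROD (ENSDARG00000006818), the uroporphyrinogen decarboxylase, had 21.3, 35.6 and 20.1 CPM in mutants, against 9.31, 13.8 and 15.6 CPM in siblings. Every mutant was above every sibling, with mutants at 25.7 ± 8.62 CPM and siblings at 12.9 ± 3.23 CPM (SD, n = 3) and a log2 difference of 0.98 ± 0.28 (SE). Per 1000 hbae3 reads, UROD overlapped between the groups, at 53.1, 29.3 and 88.4 in mutants and 13.1, 18.3 and 33.0 in siblings.

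FECH (ENSDARG00000003462), the ferrochelatase, had 5.10, 6.84 and 3.54 CPM in mutants, against 0.776, 2.03 and 3.81 CPM in siblings, from 15 to 30 counts in mutants and 3 to 22 in siblings. Mutant replicate 3 was below sibling replicate 3, so the groups overlapped, and the log2 difference was 1.16 ± 0.52 (SE). Both enzymes are used in all cells that make heme, not in red cells alone. The heme synthesis members together had 61.1, 159 and 39.0 CPM in mutants, against 61.3, 68.4 and 50.9 CPM in siblings, a log2 ratio of means of 0.52 that was -0.27 without mutant replicate 2.

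Over all members, 12 of the 14 identifiers passed the low-count filter and 4 were called higher and 0 lower: hbaa1, ENSDARG00000097238, hbae5 and UROD. With at most 1 count over the siblings, hbaa1 and ENSDARG00000097238 passed the filter only through the mutant libraries. With 2, 3 and 12 counts in the siblings, hbae5 also needed the mutant libraries to pass. A lower call was thus not open to these genes, and their calls and lack of overlap are given as a description. The same holds for ENSDARG00000089087 where it was tested. Of all tested genes 25.7% were called, 12.9% of all tested genes higher and 12.8% lower, and nothing is read from the members' count since they were chosen on this contrast. Among the 12 tested, the same 4 were those whose every mutant library lay above every sibling library. Of all tested genes, 21.8% lay above in this way and 43.6% were apart in either direction. ENSDARG00000089087, which was not tested, also lay above, but by only 1 count in mutant replicate 1. The count of called members was 2 on total counts (hbaa1 and ENSDARG00000097238) or without mutant replicate 3 (hbae5 and UROD). The calls on hbaa1 and ENSDARG00000097238 were also lost without each sibling library in turn and with no low-count filter, and that on hbaa1 with limma-voom. Without sibling replicate 1 or sibling replicate 2 it was 1, ENSDARG00000089087, which passed the filter there. Without mutant replicate 2 it was 2 higher (hbaa1 and ENSDARG00000097238) and 3 lower, and the lower ones were hbae3 and the HBE1 identifiers ENSDARG00000045143 and ENSDARG00000113599. The calls on hbae5 and UROD were thus lost on total counts and without mutant replicate 2, sibling replicate 1 or sibling replicate 2. The median log2 difference was 0.57 over the tested members, beside 0.00 over all tested genes. It includes hbaa1, ENSDARG00000097238 and hbae5, and also FECH, which had 3 counts in sibling replicate 1 and needed the mutant libraries to pass. Nothing is read from this median either, since the members were chosen on this contrast.

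The other globins carried by red cells were not called by edgeR. Of 4 tested embryonic globins outside the members, 0 were higher and 0 lower, beside 12.9% higher and 12.8% lower among all tested genes. The β chain hbbe3 (ENSDARG00000038147) had 140, 361 and 86.4 CPM in mutants, against 53.3, 47.2 and 88.6 CPM in siblings. Its log2 difference of 1.63 ± 0.60 (SE) was not past the threshold (adjusted p of 0.103 by edgeR, 0.0484 by DESeq2, up to 0.373 over 14 alternatives). The α chain hbae1.3 had a log2 difference of 0.55 ± 0.59 (SE, adjusted p of 0.560 by edgeR), which was -0.45 without mutant replicate 2.

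Of 3 tested globins of other cells, 2 were lower in mutants, beside 12.8% lower among all tested genes. Myoglobin (mb, ENSDARG00000031952), an oxygen store of muscle, fell to 99.1, 65.0 and 105 CPM in mutants, against 341, 252 and 360 CPM in siblings. Its log2 difference was -1.82 ± 0.21 (SE, adjusted p of 8.62e-05 by edgeR). The neuroglobin gene NGB, a globin of nerve cells, fell to 1.63 ± 0.628 CPM in mutants, against 4.98 ± 1.33 CPM among siblings (SD, n = 3; adjusted p of 0.0295 by edgeR). That call was lost in 3 of 14 alternatives, all of them leaving out a library. NGB had 9, 4 and 8 counts in mutants, against 23, 30 and 20 in siblings. It passed the low-count filter only through the siblings, so a higher call was not open to it. The cytoglobin gene cygb2 was not called, and xgb did not pass the low-count filter.

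Of the 7 other heme synthesis genes, 1 was higher and 0 were lower, beside 12.9% higher and 12.8% lower among all tested genes. CPOX (ENSDARG00000062025), which makes protoporphyrinogen, rose to 51.6, 59.3 and 89.0 CPM in mutants, against 21.0, 33.7 and 40.3 CPM in siblings. Its log2 difference was 1.06 ± 0.26 (SE, adjusted p of 0.0101 by edgeR) and the call held in all 14 alternatives. PPOX, the next enzyme, differed by 0.88 ± 0.34 (SE) and uros by 0.75 ± 0.28 (SE), with adjusted p of 0.0773 and 0.0665 by edgeR. ALAS1, the form of the first enzyme used outside red cells, differed by 0.21 ± 0.17 (SE). The median log2 difference of the list was 0.53, beside 0.00 over all tested genes.

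**Figure D4:**
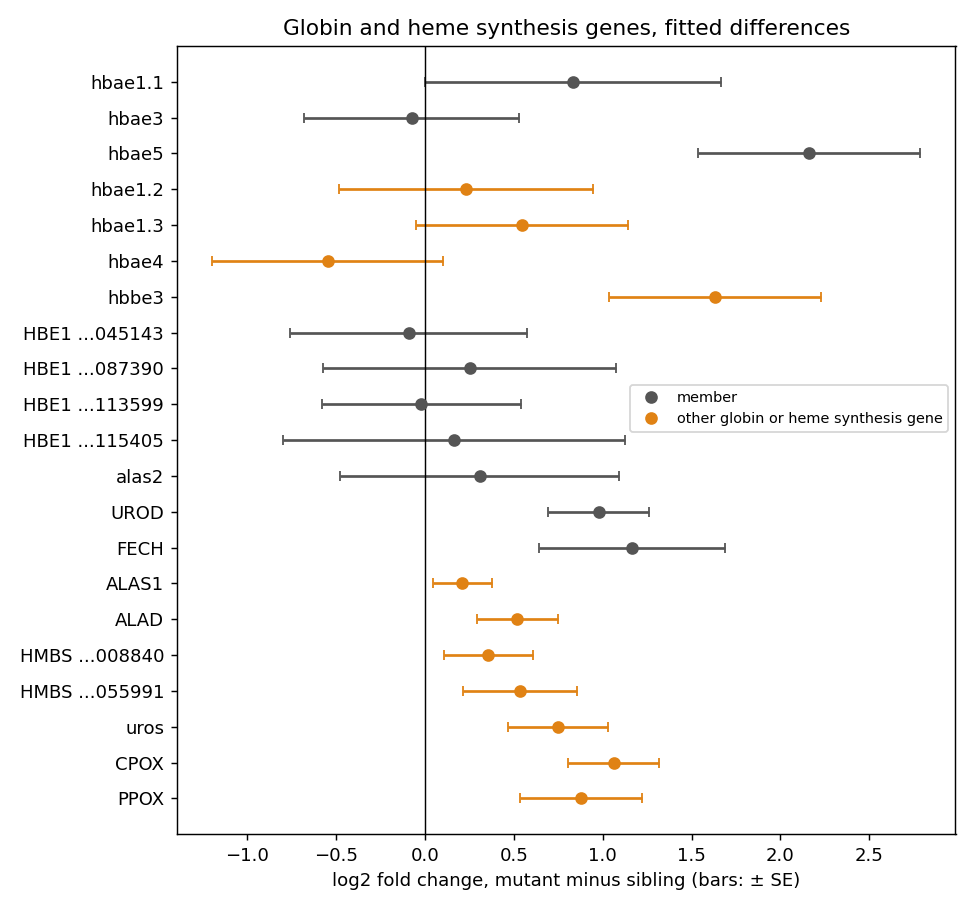
Fitted log2 difference (mutant minus sibling) with its SE for tested members (grey) and the other tested embryonic globin and heme synthesis genes (orange); hbaa1 and ENSDARG00000097238 are left out because siblings had at most 1 count. hbae5 and hbbe3 lie farthest to the right at 2.16 and 1.63, and the heme synthesis genes lie between 0.21 and 1.16.

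Of 18 tested genes of iron supply, 3 were higher and 0 lower, beside 12.9% higher and 12.8% lower among all tested genes. The ferritin heavy chain gene fth1a, which stores iron, rose to 912 ± 166 CPM in mutants, against 526 ± 49.1 CPM among siblings (SD, n = 3; adjusted p of 0.0113 by edgeR, 0.000227 to 0.0665 over 14 alternatives, highest without sibling replicate 3). The iron-sulfur cluster gene GLRX5 rose to 63.7 ± 5.23 CPM in mutants, against 34.1 ± 6.82 CPM among siblings (SD, n = 3; adjusted p of 0.00389 by edgeR, 0.00016 to 0.0506 over 14 alternatives, highest on total counts). ISCU (ENSDARG00000026582), also of iron-sulfur cluster assembly, differed by 1.32 ± 0.39 (SE) on the log2 scale, a call lost in 5 of 14 alternatives. Another ISCU identifier with more counts, ENSDARG00000035596, differed by 0.47 ± 0.23 (SE) and was not called.

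Of 11 tested genes of heme transport and breakdown, 1 was higher and 1 lower, beside 12.9% higher and 12.8% lower among all tested genes. The heme exporter gene FLVCR1 fell to 6.26 ± 0.109 CPM in mutants, against 16.9 ± 7.42 CPM among siblings (SD, n = 3; adjusted p of 0.0088 by edgeR, 0.000808 to 0.0507 over 14 alternatives, highest without sibling replicate 1). The transporter gene abcg2a was called higher by 0.92 on the log2 scale, a call lost in 7 of 14 alternatives. Over the iron and the heme handling lists, the median log2 differences were 0.26 and 0.24, beside 0.00 over all tested genes.

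Of 13 tested genes on the list of red cell regulators, 1 was higher and 3 were lower. Among all tested genes 12.9% were higher and 12.8% lower. TAL1, a transcription factor of blood cells that nerve cells also use, fell to 12.0, 12.1 and 8.97 CPM in mutants, against 31.0, 23.4 and 20.6 CPM in siblings (adjusted p of 0.00477 by edgeR). The gene bcl11ba, which belongs to nerve cells and lymphocytes more than to red cells, differed by -1.81 ± 0.30 (SE, adjusted p of 0.00147 by edgeR). MYB was called higher, by 0.84 on the log2 scale, and KLF3 lower, at 4.94 CPM in mutants against 9.96 CPM in siblings on average, with calls lost in 5 and 7 of 14 alternatives. The red cell regulator klf1 had 3.47, 8.67 and 0.236 CPM in mutants, against 4.14, 2.40 and 0.519 CPM in siblings. It was not called, and gata1a did not pass the low-count filter.

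Of 17 tested genes on the list of red cell membrane and enzyme genes, 3 were higher and 3 lower. The shares among all tested genes were 12.9% higher and 12.8% lower. The lower genes of the list were ANK1 (ENSDARG00000074777), add2 and DMTN, cytoskeletal genes that nerve cells also use, with log2 differences of -1.61, -1.81 and -1.36. Another ANK1 identifier with more counts, ENSDARG00000059093, differed by 0.16 ± 0.30 (SE) and was not called. TXN, a thioredoxin used in most cells, differed by 0.94 ± 0.22 (SE, adjusted p of 0.00731 by edgeR). NT5C3A and AQP1 (ENSDARG00000023713) were also called higher, by 0.70 and 0.56 on the log2 scale (adjusted p of 0.0283 and 0.0467 by edgeR). The calls on add2 and DMTN were lost in 2 and 3 of 14 alternatives. Most neuron markers were lower in mutants, as given above, and their part in these values was not tested. Counted over all these lists outside the members, 73 genes were tested and 9 were higher and 9 lower, a share close to the 25.7% called among all tested genes, with 11 called in all without mutant replicate 1 and 10 without sibling replicate 1.

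Markers of other blood and vessel cells were summed as well. Neutrophil and macrophage markers summed to between 49.5 and 63.5 CPM in mutants and between 39.1 and 55.9 CPM in siblings. Of these, 0 of 4 tested were called, beside 25.7% called among all tested genes. On the longer list for these cells only il34 was called, of 9 tested, and it was higher in mutants, beside 12.9% higher among all tested genes. It had 11, 13 and 20 counts in mutants, against 4, 4 and 7 in siblings. Thus il34 passed the low-count filter only through the mutant libraries, and a lower call was not open to it. Endothelial markers summed to between 53.8 and 98.5 CPM in mutants and between 99.8 and 129 CPM in siblings, lowest in mutant replicate 3. Here 0 of 5 tested were called, beside the same 25.7% among all tested genes. Thrombocyte, heart, and yolk and liver markers summed to under 10 CPM in every library. The thrombocyte gene mpl and the liver gene fabp10a were at 0 throughout, and so was 1 of the 3 MPEG1 macrophage identifiers.

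Among 15528 genes of sufficient level, those whose log2 CPM over the 6 libraries was most like the summed embryonic α-globins were taok2a, SP8, ATXN1, PLXNB1 and trim55a. Pearson's r ran from 0.979 to 0.988 and Spearman's rho was 0.943 or more, and r stayed at 0.905 or more without mutant replicates 2 and 3. For hbaa1 they were PPOX, ZC3H7B, mrnip, ylpm1 and znf1007, with r from 0.988 to 0.995 and rho from 0.812 to 0.986. Without mutant replicates 2 and 3, r was 0.940 or more. That last r cannot show likeness of pattern, since hbaa1 then had 10 counts in mutant replicate 1 and at most 1 per sibling. These are the highest values among many genes over few libraries that share group and depth, and are given as a description.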

How the data were processed

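The deposited table holds raw read counts by Ensembl gene identifier for the 6 libraries. Per the submitters' processing notes, HISAT2 and featureCounts were used with the GRCz11 build. No source used here gives versions, annotation release, strand setting or multi-mapping, so antisense overlaps are uncertain. Symbols were matched for 29201 of 32520 genes.

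The test, in edgeR 4.0.16 under R 4.3.3, used filterByExpr, TMM factors (0.788 to 1.14), quasi-likelihood test (robust, two-sided), Benjamini-Hochberg adjustment over all tested genes. Log2 differences are mutant minus sibling. Intervals are exact binomial (95%). The floor of 3 counts per library was 0.696 CPM in mutants and 0.616 CPM in siblings, and intervals and floors cover counting error only. No replicates agreed within sampling noise (chi-square per degree of freedom from 6.70 to 18.8). Tested on simulated data, the procedure made a larger share of false calls than its 0.05 threshold sets and missed many genes with small changes.

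The members and lists were chosen with earlier results of these data known. Named genes were all members, up to 4 called genes per list by lowest p (or, with none called, up to 2 of highest level), and the 5 most similar genes for each α-globin group. Not all that the rule takes are described. Where a symbol in capitals covered several identifiers, all were taken. Alternatives were other size factors, other filters, DESeq2 1.42.0, limma-voom (limma 3.58.1), a replicate block and leaving out each library.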

Additional observations from a re-analysis of the deposited data

How the results depend on the processing

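RLE and upper quartile factors, the other filters, DESeq2 and limma-voom gave between 3931 and 4555 called genes, and 3882 came with total counts alone (1095 higher, 2787 lower, with an all-gene median of -0.26 on the log2 scale). Between 3 and 4 members were called in these settings, without hbaa1 in limma-voom and with no filter, and 2 with total counts alone. Leaving out 1 library gave 2521 to 3763 called genes, 1 to 5 called members and 10 to 18 called genes of the other lists. It gave log2 ratios of -0.99 to 0.39 for the embryonic α sum, -0.80 to 0.59 for HBE1 and -0.27 to 0.88 for the heme synthesis sum, each lowest without mutant replicate 2. The adult α ratio could not be computed without sibling replicate 2, which held the only sibling count. The difference of hbae1.3 ran from -0.45 to 0.90 on the log2 scale, reversed only without mutant replicate 2. Of 16 called list genes named by the rule, 10 missed the threshold in some alternative and 0 reversed. The cause was not tested. Adding a replicate block gave 5059 called genes, 4 members and 23 list genes. Deviations of libraries with equal numbers had correlations of 0.241, 0.0893 and 0.184, and the labels state no pairing. Depth limits genes under about 0.7 CPM.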
